A study of Mus musculus with 4 samples.

Results

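The genes described here are the HIST genes, the family named for the 4 numbered clusters in which the replication-dependent histone genes lie. A probe belonged to the set where its array name began with HIST, a cluster number from 1 to 4 and the letter H, and where it was not a control. The set held 64 genes on 86 probes, of 18760 named genes and 41000 probes on the array. It contained 6 genes for the linker histone H1, 15 for H2A, 17 for H2B, 12 for H3 and 14 for H4. The family was selected on results of the same farnesol against vehicle contrast, so its ratios are given as a description and no test was applied to them.

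The RNA came from H460, an established human lung carcinoma line grown in culture. One group had been exposed to 250 µM farnesol (FOH), an isoprenoid alcohol, for 4 h, and the other to the vehicle dimethyl sulphoxide. A source name of the vehicle RNA of replicate 2 can be read as 0 h, where the title has the letter O. Both were taken as the vehicle RNA. Were that RNA harvested at 0 h, farnesol and time in culture could not be told apart. There were 2 experiments, and in each the farnesol RNA was hybridised against its own vehicle RNA on a pair of arrays with the Cy3 and Cy5 dyes exchanged. The 4 arrays therefore held 2 replicates, and the labels do not say whether the experiments used separately grown cultures. The sample labels name the mouse as organism, whereas the protocols describe a human line and the array's probes are named after human genes. The values below are log2 ratios of farnesol over vehicle, where 0 is no difference and 1 is 2-fold higher, given as the mean of the replicates ± their SD (n = 2).

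Histones H2A, H2B, H3 and H4 form the core of the nucleosome, around which DNA is wrapped, and H1 binds the DNA where it enters and leaves. Dividing cells need new histones as they copy their DNA, and most of that supply comes from replication-dependent genes, which are many near-identical copies without introns. Their mRNAs end in a stem-loop instead of a poly(A) tail. The stem-loop binding protein SLBP holds that structure through processing, translation and decay, and the messages normally build up in S phase and are destroyed at its end. Some of these genes can also give a polyadenylated message. The labels name a linear amplification kit for the RNA and do not state its primer. An amplification primed on poly(A) would copy only the polyadenylated form, and which of the 2 forms the probes measured was not tested.

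Between 82.7% and 93.0% of the spots of a channel were well above background, and no HIST spot was saturated on any array. Across the tested HIST genes the dye-swapped arrays correlated at r = 0.995 in replicate 1 and 0.990 in replicate 2, and arrays of different replicates at 0.906 to 0.919. Over all tested features these were 0.943, 0.942 and 0.634 to 0.684. The points are genes that share their arrays, and near-identical copies can share RNA, so these coefficients are descriptions. The epithelial markers KRT8, KRT18, KRT19, EPCAM and CDH1 were above background in both conditions on all 4 arrays (5 of 5). Of the markers of other cells, 3 of 4 for leukocytes, 2 of 4 for fibroblasts and 2 of 3 for endothelium were also above background on all arrays, with processed intensities up to 4660, 1433 and 1137. The part of such signal in the results was not tested.

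A gene was tested where its probe stood above background in the same condition on at least 1 array of each replicate, and the brightest such probe represented it. This left 62 HIST genes on 81 probes. In 57 of these the RNA was higher with farnesol in both replicates, in 3 it was lower in both, and in 2 the replicates differed in sign. The same 2 counts over all 28594 tested features were 35.4% higher and 30.1% lower in both replicates. Requiring both conditions above background on all 4 arrays left 60 HIST genes, with 55 higher and 3 lower in both replicates. The median HIST gene had a log2 ratio of 1.19, or 2.28-fold, with replicate medians of 0.997 and 1.38, and the values ran from -1.55 to 3.16. The median of all features was 0.01.

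At least 2-fold higher in both replicates, with every array on the same side, were 25 HIST genes, beside 0.657% of all features. No HIST gene was at least 2-fold lower by the same rule, beside 0.238% of all features. Since the contrast chose the genes, these counts support nothing by themselves. Taken alone, replicate 1 had 30 genes past 2-fold above vehicle and 3 past 2-fold below it, beside 1.48% and 0.549% of all features. Replicate 2 alone had 39 and 0, beside 1.75% and 0.455% of all features. The number of lower genes was 5 in replicate 1 and 3 in replicate 2. Just inside the 2-fold rule were HIST1H2BD, whose weaker replicate had 1.01, and HIST1H2AJ with 1.03. Just outside were HIST1H2BC with 0.998 and HIST3H2BB with 0.996. Bulk RNA cannot tell more cells holding a transcript from more transcript in each cell. Limma's moderated test with Benjamini-Hochberg adjustment called 3 of all features (0.0105%), EGR1, JUN and NR4A1, which encode immediate early transcription factors.

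**Figure D1:**
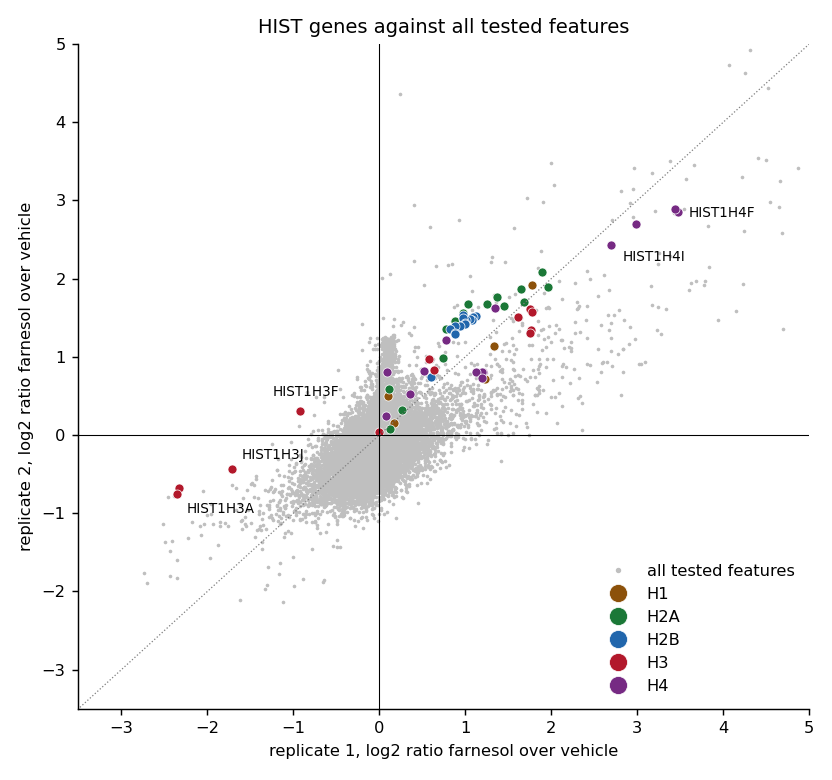
Log2 ratio of farnesol over vehicle in replicate 1 (x axis) against replicate 2 (y axis), with 1 point per tested feature, grey for all 28594 and coloured by histone for the 62 HIST genes. The dotted line marks equal values, and 16 grey features lie outside the plotted range. Most coloured points lie in the upper right quadrant, 4 H4 genes stand at the far right, and HIST1H3A, HIST1H3E, HIST1H3J and HIST1H3F lie left of 0.

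The linker histone H1 compacts the fibre of nucleosomes. Of its 6 genes 5 were tested, all 5 were higher in both replicates, and their median was 0.97. HIST1H1C had log2 ratios of 1.73 and 1.81 on the arrays of replicate 1 and 1.95 and 1.89 on those of replicate 2, a mean of 1.85 ± 0.11 (3.59-fold). Its processed spot intensity was 9609 to 14444 in vehicle and 35358 to 60047 in farnesol, so the conditions did not overlap. For HIST1H1E the arrays gave 1.47, 1.20, 1.25 and 1.02, and the mean was 1.23 ± 0.14. HIST1H1D averaged 0.97 ± 0.36, with replicate 1 (1.23) above replicate 2 (0.72). HIST1H1B stood at 0.10 in replicate 1 and 0.50 in replicate 2, and its mean of 0.30 became 0.77 with a normexp offset of 0 and 0.87 with the scanner software's processed signals.

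The testis-specific HIST1H1T was above background on 0 of 4 arrays in vehicle and on 4 of 4 in farnesol. It passed the filter through farnesol alone, so its place among the higher genes carries no weight. Its measured ratio was 0.16 ± 0.02 (1.12-fold), against a vehicle signal not well above background. The ratio was 0.61 with an offset of 0 and 0.82 with the processed signals. HIST1H1A was not well above background in either condition on any array and was not tested.

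H2A and H2B pair as dimers on the outside of the nucleosome core. All 15 H2A genes were tested and all 15 were higher in both replicates, with a median of 1.35 and 8 genes at least 2-fold higher in both. HIST1H2AE led with 1.92 and 1.85 in replicate 1 and 2.13 and 2.05 in replicate 2, a mean of 1.99 ± 0.14 (3.97-fold). HIST2H2AA followed at 1.98, 1.93, 1.99 and 1.79, or 1.92 ± 0.05, and its intensity went from 9822 to 16131 in vehicle to 39412 to 68674 in farnesol. HIST1H2AD had 1.67 and 1.62 in replicate 1 and 1.90 and 1.82 in replicate 2, with a mean of 1.75 ± 0.15. In each of these 3 genes every array lay above 1.5, and the arrays differed by less than 0.5.

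Further H2A genes above 2-fold in both replicates were HIST2H2AB at 1.69 ± 0.01, HIST3H2A at 1.57 ± 0.28, HIST2H2AC at 1.55 ± 0.14, HIST1H2AM at 1.46 ± 0.30 and HIST1H2AJ at 1.35 ± 0.46. Replicate 2 exceeded replicate 1 in 13 of the 15, against 51.2% of all features. The gap was widest in HIST1H2AJ, whose replicates read 1.03 and 1.68. HIST1H2AK, HIST1H2AH and HIST1H2AG missed the rule in replicate 1 alone, at 0.97, 0.88 and 0.78, and had 1.56, 1.46 and 1.36 in replicate 2.

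At the low end of the H2A genes stood HIST1H2AB with 0.86 ± 0.17, HIST1H2AL with 0.35 ± 0.34, HIST1H2AA with 0.29 ± 0.04 and HIST1H2AC with 0.10 ± 0.03. The last of these turned to -0.04 when each array was centred on its median in place of loess. HIST1H2AL, HIST1H1B and the H4 gene HIST1H4A shared a pattern, within 0.2 of 0 in replicate 1 and at 0.5 or above in replicate 2. That pattern was found in 679 of all features (2.37%) and in these 3 HIST genes (4.84%). The features with it had a median log2 brightness of 10.98, beside 7.48 for all features. These 3 HIST genes were dimmer, at 6.83, 6.35 and 7.28, and the normexp offset shrinks ratios of dim probes.

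On their brightest probes, the H2B genes were the most alike. All 16 tested were higher in both replicates, and in 16 of 16 replicate 2 exceeded replicate 1. Apart from HIST1H2BK, the 15 means lay between 1.09 and 1.32, from 0.83 to 1.12 in replicate 1 and from 1.30 to 1.53 in replicate 2. The median over the 16 was 1.22, and in 5 genes both replicates reached 2-fold. They were HIST1H2BN at 1.32 ± 0.28, HIST1H2BG at 1.30 ± 0.30, HIST1H2BI at 1.28 ± 0.29, HIST1H2BM at 1.27 ± 0.30 and HIST1H2BD at 1.24 ± 0.33. Neighbours in this order differed by less than the SD of each, and those SDs hold the gap between replicates that these genes share. Since H2B copies are near-identical in sequence, several of these probes may have read the same transcripts, which was not tested.

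HIST1H2BK stood apart on the brightest probes, with 0.63 and 0.58 in replicate 1 and 0.80 and 0.68 in replicate 2. Its mean was 0.67 ± 0.09 (1.59-fold). Its intensity was 12471 to 15337 in vehicle and 20435 to 28399 in farnesol. Its highest array was below the lowest replicate 1 mean among the other H2B genes. With the mean of a gene's tested probes, however, HIST1H2BJ at 0.585 and HIST2H2BE at 0.590 lay below HIST1H2BK at 0.671. HIST1H2BA, the testis-specific copy, was not well above background on any array and was not tested.

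**Figure D2:**
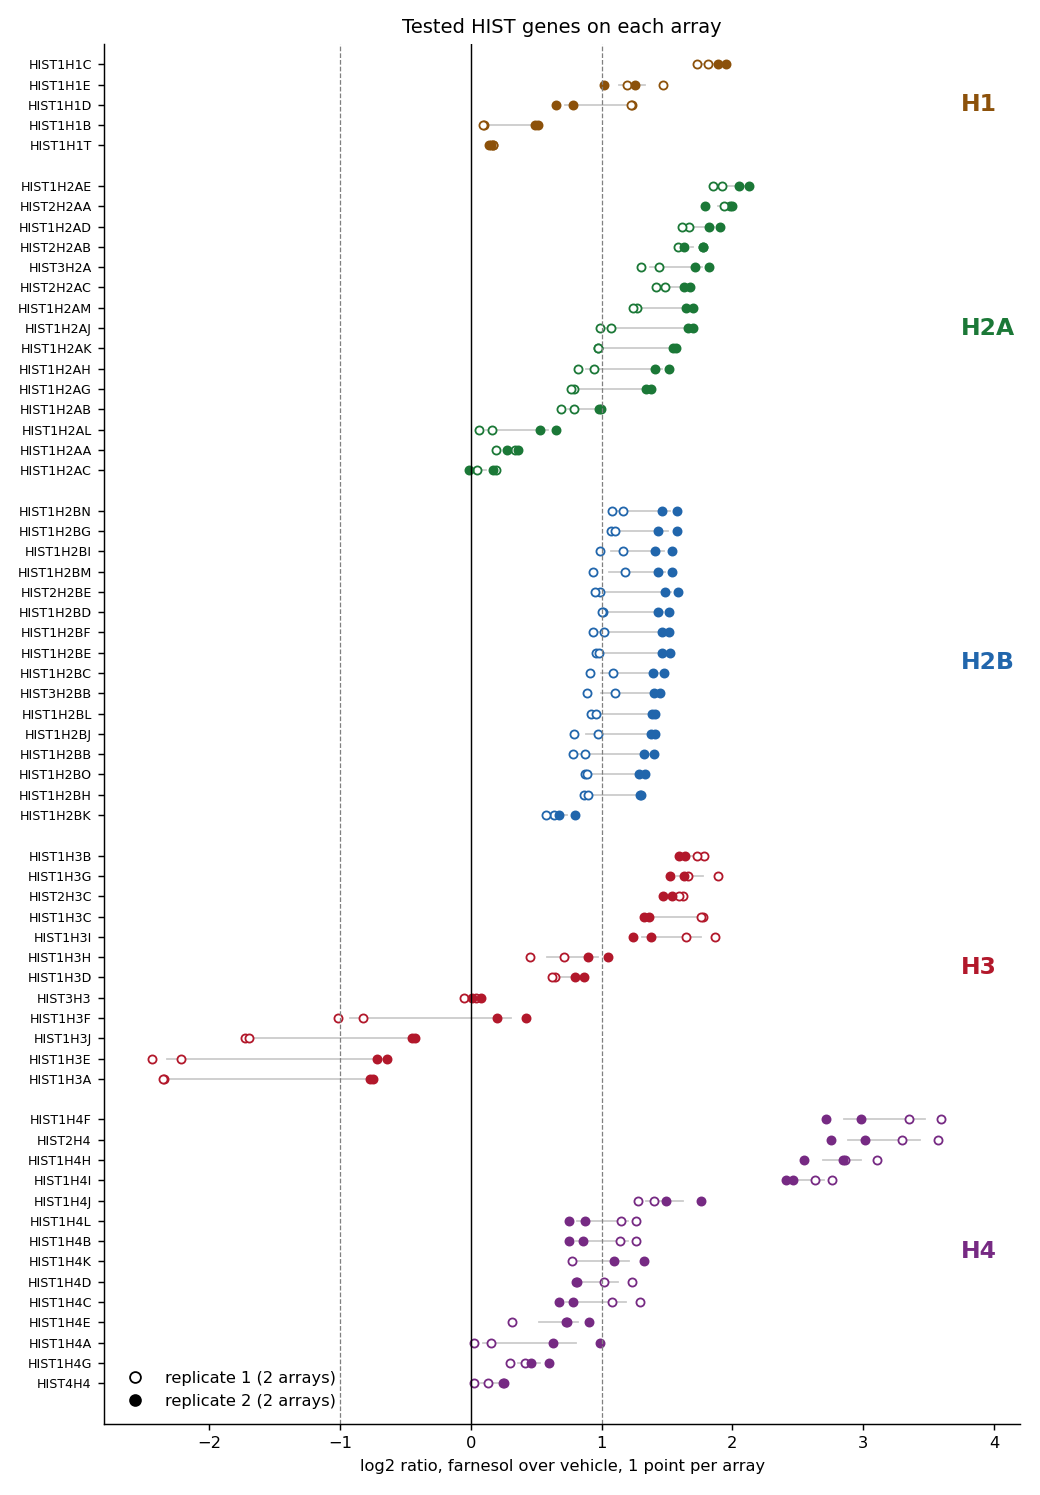
Log2 ratio of farnesol over vehicle (x axis) for each of the 62 tested HIST genes, by histone, with 1 point per array; open points are replicate 1, filled points replicate 2, and the grey line joins the replicate means. Dashed lines mark 2-fold. The H2B genes form a narrow column with replicate 2 to the right of replicate 1. Single arrays of the H3 genes spread from -2.43 to 1.89 and those of the H4 genes from 0.03 to 3.59.

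The H3 and H4 histones form the tetramer at the centre of the nucleosome. The 12 H3 genes split into distinct ranges, with a median of 0.76, 7 higher and 3 lower in both replicates. The 5 at least 2-fold higher in both were HIST1H3B at 1.69 ± 0.10, HIST1H3G at 1.68 ± 0.14, HIST2H3C at 1.56 ± 0.07, HIST1H3C at 1.56 ± 0.30 and HIST1H3I at 1.53 ± 0.32. These 5 means lay within 0.2 of each other and cannot be ordered against their SDs. HIST1H3H had 0.78 ± 0.28 and HIST1H3D 0.73 ± 0.14.

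HIST1H3A, HIST1H3E and HIST1H3J were the HIST genes that were lower in both replicates. HIST1H3A had -2.35 and -2.35 on the arrays of replicate 1 and -0.75 and -0.77 on those of replicate 2, a mean of -1.55 ± 1.12. Its intensity in vehicle was 28661 to 36962 in replicate 1 and 23207 to 27823 in replicate 2. In farnesol it was 5432 to 7108 in replicate 1 and 13912 to 17142 in replicate 2, so the conditions did not overlap in either experiment. The decrease was 5.10-fold in replicate 1 and 1.69-fold in replicate 2, and the arrays within each replicate differed far less than the replicates did.

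HIST1H3E followed the same course, with -2.22, -2.43, -0.64 and -0.72 on its arrays and a mean of -1.50 ± 1.16. HIST1H3J had -1.72, -1.69, -0.45 and -0.43, a mean of -1.07 ± 0.90. HIST1H3F was 1 of the 2 genes whose replicates differed in sign, beside HIST3H3, with -0.83 and -1.01 in replicate 1 but 0.42 and 0.20 in replicate 2. In all 4 of these genes replicate 1 was the lower by 1.2 or more, whereas among the 5 high H3 genes replicate 1 was the higher. The 8 H3 genes without these 4 had a median of 1.54.

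The testis H3 gene HIST3H3 had -0.05 and 0.04 in replicate 1 and 0.01 and 0.08 in replicate 2, a mean of 0.02 ± 0.03. Its intensity was 114920 to 188836 in vehicle and 118746 to 184821 in farnesol, so the conditions overlapped throughout. Its only probe was among the brightest HIST probes, and whether that probe read RNA of other genes was not tested. Under median centring of each array its ratio was -0.17.

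**Figure D3:**
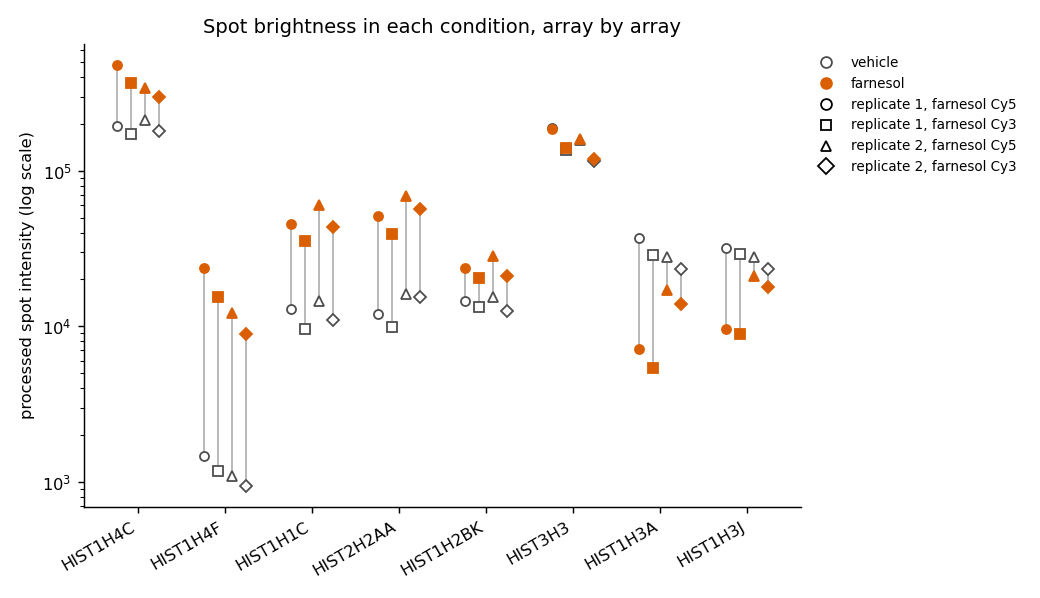
Processed spot intensity (log scale) of 8 HIST genes in vehicle (open) and farnesol (filled), with a marker shape for each array and a line joining the conditions on an array. Within HIST1H4F, HIST1H1C and HIST2H2AA every farnesol value lies above every vehicle value, within HIST3H3 they coincide, and within HIST1H3A and HIST1H3J the lines point down and are longer in replicate 1. Intensities of different genes come from different probes and are not comparable.

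All 14 H4 genes were tested and all 14 were higher in both replicates, with a median of 0.997. They held the 4 highest values among the HIST genes. HIST1H4F had 3.59 and 3.35 in replicate 1 and 2.99 and 2.72 in replicate 2, a mean of 3.16 ± 0.44 (8.95-fold). Its intensity was 945 to 1467 in vehicle and 8950 to 23568 in farnesol. HIST2H4 read 3.57, 3.30, 3.01 and 2.76, a mean of 3.16 ± 0.39, on intensities of 2376 to 3267 in vehicle and 19400 to 45617 in farnesol. These 2 genes, from different clusters, did not differ beyond their spread.

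HIST1H4H followed with 3.11, 2.86, 2.84 and 2.55, or 2.84 ± 0.20 (7.16-fold). HIST1H4I had 2.76, 2.63, 2.46 and 2.41, or 2.57 ± 0.19 (5.93-fold). In each of the 4, replicate 1 was above replicate 2, and the lowest single array, at 2.41, lay above every array of the other H4 genes. HIST1H4J came next at 1.48 ± 0.20 and was the last H4 gene above 2-fold in both replicates.

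HIST1H4C was measured at 1.30 and 1.08 in replicate 1 and 0.68 and 0.78 in replicate 2, a mean of 0.96 ± 0.33. Its intensity was 171475 to 210862 in vehicle and 296440 to 478460 in farnesol. HIST1H4L at 1.01, HIST1H4B at 1.003 and HIST1H4D at 0.97 had almost the same mean. HIST1H4B and HIST1H4L were nearly equal on every array, with 1.26, 1.14, 0.75 and 0.86 for the first and 1.26, 1.15, 0.75 and 0.87 for the second. Whether these probes read the same RNA was not tested. HIST1H4K had 0.99 ± 0.31, with 1 array of replicate 1 left out because its spot was an outlier. The remaining H4 genes were HIST1H4E at 0.67, HIST1H4A at 0.45, HIST1H4G at 0.44 and HIST4H4 at 0.17, the only member of its cluster. HIST1H4G read 1.01 with an offset of 0 and 1.21 with the processed signals.

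By cluster, the 52 tested HIST1 genes had a median of 1.12 and included all 3 that were lower. The 6 HIST2 genes were all higher in both replicates, with a median of 1.62 and values from 1.25 to 3.16. Of the 3 HIST3 genes, HIST3H2A and HIST3H2BB were higher and HIST3H3 was near 0.

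More than 1 probe was tested for 17 genes, and in 11 of them the probes differed by at least 0.5. The widest gap was in HIST2H3C, where the RefSeq probes gave 1.40 and 1.56 and a cDNA clone probe gave 3.50. For HIST1H3D the brightest probe gave 0.73 and another RefSeq probe 2.53. HIST1H2AC, near 0 on its brightest probe, had 1.81 on a clone probe, whose replicates read 2.21 and 1.41. The flat value of HIST1H2AC therefore holds for 1 of its 2 probes.

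In the other 8 genes the brightest probe was the highest. HIST1H3G had 1.68 and 0.06, HIST2H2BE 1.25, 0.42 and 0.10, HIST2H2AB 1.69 and 0.58, HIST1H2BJ 1.14 and 0.03, and HIST1H2BN 1.32 and 0.26. HIST1H2AH had 1.17 and 0.20, HIST2H2AA 1.92 and 1.08, and HIST3H2BB 1.21 and 0.50. Of the 8 tested probes designed on cDNA or EST clones, 5 lay within 0.5 of 0. Counted by probe, 76 of the 81 tested HIST probes were higher in both replicates and 3 lower. Over all features, each on its brightest probe, 35.4% were higher and 30.1% lower in both. The shares over all probes are not given here.

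**Figure D4:**
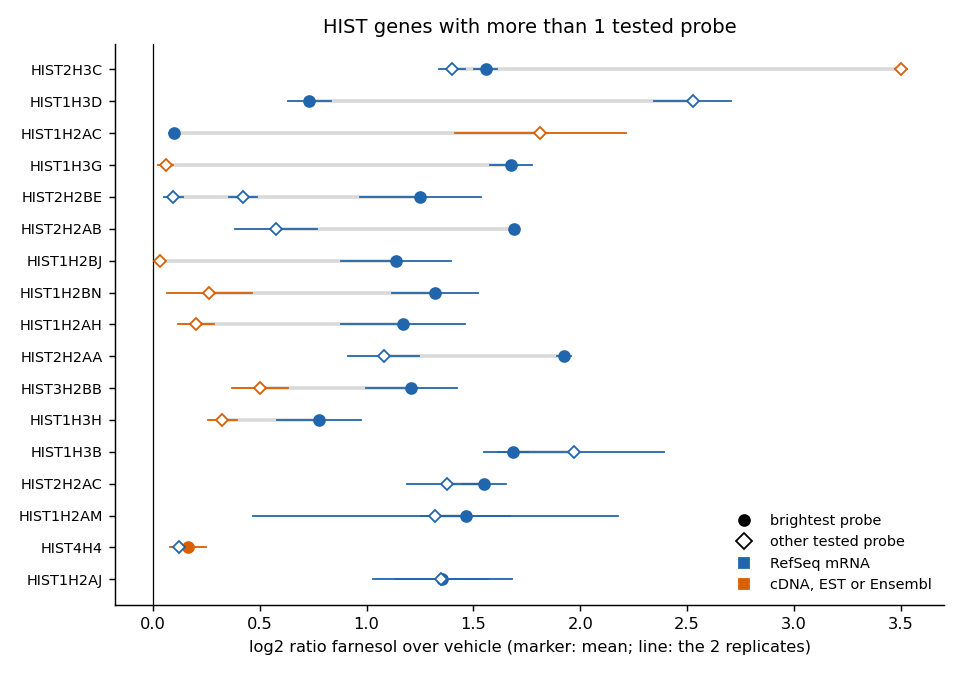
Log2 ratio of farnesol over vehicle for the 17 HIST genes with more than 1 tested probe. Filled circles are the brightest probe and open diamonds the others, coloured line segments join the 2 replicates, and colour gives the type of transcript behind the probe. In most genes the brightest probe is the rightmost, while HIST2H3C, HIST1H3D, HIST1H2AC and HIST1H3B have a higher mean on a dimmer probe.

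The authors' deposited table, which covers replicate 1, listed 66 of the HIST probes for 54 genes. In the authors' deposited table, farnesol was higher for 62 of these and lower for 4. The shares over all probes of that table are not given here, so these counts describe the listed HIST probes only. All 66 HIST probes had the same sign as the ratio computed here for replicate 1. That table came from the same arrays and set the direction of the ratios here, so the shared sign supports nothing. Probes of HIST3H3 and HIST4H4 were not listed, and how the listed probes were chosen was not tested. For HIST1H4F the authors' deposited table gave a ratio of 14.5 and for HIST2H4 12.4, against 11.1-fold and 10.8-fold here.

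The factors that make, use and remove histone mRNA were read beside the family. Of 57 such genes 55 were found on the array and tested, and ERI1 and TUT1 were not matched by name. Limma with Benjamini-Hochberg adjustment over all features called 0 of the 55 in either direction (lowest adjusted p = 0.191). At an unadjusted limma p under 0.05 there were 26 lower and 0 higher, or 47.3% of the list, beside 14.5% of all features, 3090 lower and 1062 higher. In 41 of the 55 the RNA was lower in both replicates and in 5 higher, beside 30.1% and 35.4% of all features. The median was -0.31.

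SLBP had -0.33 and -0.77 in its replicates, a mean of -0.55 ± 0.31 (limma adjusted p = 0.296). Of the 18 genes for 3′ end processing, 15 were lower in both replicates and 1 was higher, beside 30.1% and 35.4% of all features. Their median was -0.29. NCBP1, a subunit of the nuclear cap-binding complex, had -1.31 ± 0.25. CPSF3, the endonuclease that cuts the pre-mRNA, had -0.94 ± 0.12, and the cleavage factor CSTF3 had -0.86 ± 0.04. SRRT, which joins the cap complex to histone mRNA processing, had -0.52 ± 0.12. LSM11, a protein of the U7 snRNP, had -0.20 ± 0.03, and its partner ZNF473 had 0.24 ± 0.15.

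The 10 genes for transcription of the histone clusters were closer to 0, with a median of -0.09 and no member at 0.5 or more in size. NPAT, the coactivator in the nuclear bodies at the histone clusters, had 0.20 and -0.15 in its replicates, and CASP8AP2, its partner in these bodies, 0.26 and -0.25. Neither differed from 0 beyond its spread. The 9 decay genes had a median of -0.20. UPF1, the helicase that acts in histone mRNA decay, had -0.53 ± 0.44, and PRKDC, a kinase of the DNA damage response, had -0.55 ± 0.26.

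The 18 histone chaperones and their partners had a median of -0.44. Lower in both replicates were 15 and higher 3, beside 30.1% and 35.4% of all features. HAT1, which acetylates new H4, had -1.27 ± 0.16. SUPT16H, a FACT subunit, had -0.99 ± 0.23, and RBBP7, which binds H4 in several complexes, had -0.85 ± 0.18. HIRA, which deposits the replacement histone H3 variant, had -0.68 ± 0.27 and SET -0.56 ± 0.45. NASP, the H1 and H3-H4 chaperone, had 0.15 ± 0.21.

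Genes of DNA replication, whose RNA normally accompanies that of the histones in S phase, were set beside the family as well. Of 25 tested, 21 were lower in both replicates, beside 30.1% of all features, and 0 were higher, with a median of -0.41. Limma called 0 of them, and at an unadjusted p under 0.05 there were 11 lower and 0 higher, or 44% of the list beside 14.5% of all features. RFC4, a subunit of the clamp loader, had -1.46 ± 0.47, PCNA, the clamp, had -0.98 ± 0.18, and the topoisomerase TOP2A had -0.94 ± 0.30. Other members of at least 0.5 in size with every array on the same side included PRIM1 at -0.86, UHRF1 at -0.76, MCM3 at -0.69 and FEN1 at -0.54. With the mean of its tested probes UHRF1 had -0.36. In TYMS, RRM1 and MCM6 the value rested mostly on replicate 2, with -0.33 and -0.89 for TYMS, -0.20 and -1.05 for RRM1 and -0.08 and -1.02 for MCM6. The medians of the HIST genes were 0.997 and 1.38 in the replicates, and those of the replication genes -0.20 and -0.59. The signs were thus opposite in both replicates. The HIST genes were selected on this contrast and the list was chosen with earlier results known, so this is a description.

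The replication-independent histone genes, most of whose mRNAs are polyadenylated, went both ways. Of 16 fixed names 13 were tested, and H1FNT, H2AFB1 and H3F3C were not matched by name. Of the 13, 6 were higher and 6 lower in both replicates, beside 35.4% and 30.1% of all features. The median was -0.04, and limma called 0. At an unadjusted p under 0.05 there were 8, of which 5 higher, or 61.5% of the list beside 14.5% of all features. The linker variant H1F0 had 2.11 and 1.21, a mean of 1.66 ± 0.64, and H1FX 1.48 ± 0.21. H3F3B and H3F3A, which encode the same replacement H3 protein, lay at 1.56 ± 0.40 and -1.05 ± 0.61. With the mean of the tested probes they lay at 1.48 and -1.65. H2BFS had 1.02 ± 0.24 and H2AFJ 0.79 ± 0.48. Whether the H2BFS probe read RNA of the H2B genes in the HIST clusters was not tested. H2AFZ, the variant of promoters, had -0.89 ± 0.01, and CENPA, the centromeric H3, -0.73 ± 0.16.

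**Figure D5:**
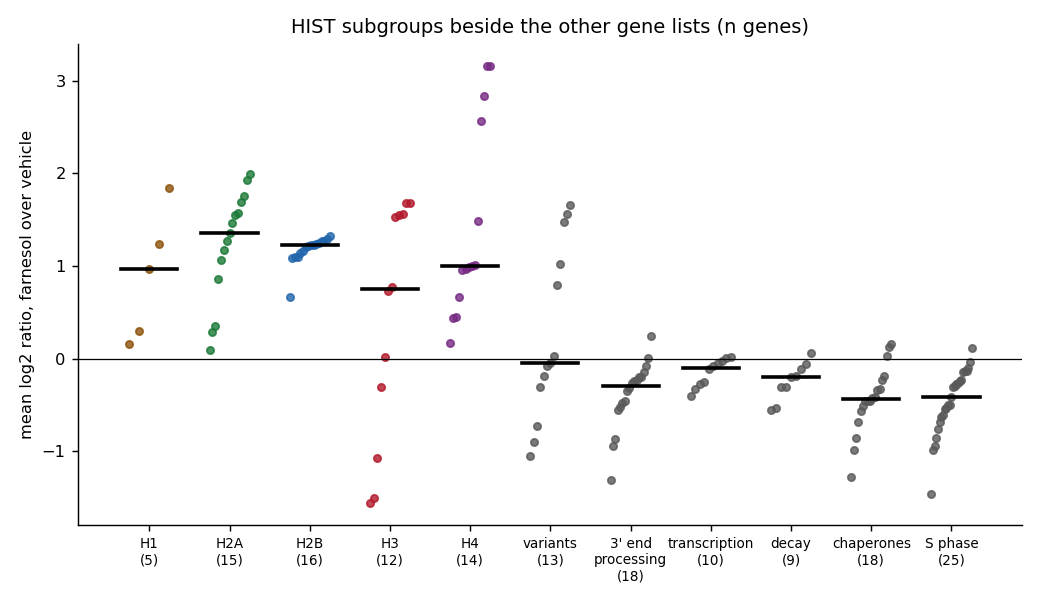
Mean log2 ratio of farnesol over vehicle for each gene (points, sorted within a column) and the median of each column (bar), with the number of tested genes under each label. Medians of the 5 HIST subgroups lie between 0.76 and 1.35, and those of the processing, transcription, decay, chaperone and S phase lists between -0.44 and -0.09.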

How the data were processed

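Arrays were scanned with Agilent Feature Extraction (8.1.1.1, per the file headers). Deposited as intensity were, per the file headers, the mean spot and median local background brightness without correction. Processed intensity values and the log10 ratio of the dyes were background-subtracted and dye-normalized by the authors' scanner software, per the file headers. Other deposited columns, per the file headers, flag spots above background, saturated or outlying. A further table of the authors gives the ratio of farnesol to vehicle on a linear scale, which set the direction here, and a p-value per probe (not used).

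From the scanner intensities, limma 3.58.1 in R 4.3.3 applied normexp (offset 50) and loess within each array. Outlying spots were left out, the sign of swapped dyes turned, and paired arrays averaged (n = 2). The offset shrinks ratios of dim probes. The two-sided limma test against 0 had 1 residual and 1.81 prior degrees of freedom, adjusted over all features at 0.05. On simulated data the recovered mean ratios were checked, with no condition set on limma's calls. P-values measure only the spread between these replicates.

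Members and lists were chosen with earlier results of these data known. Named are members at least 2-fold different in both replicates, the 8 lowest and 8 highest, the brightest of each histone, those with replicates of opposite sign (each at least 0.3), with probes 0.5 apart, or not tested; of the lists, genes of at least 0.5 with every array on the same side, and SLBP, NPAT, CASP8AP2, LSM11, ZNF473, UPF1 and ERI1. The count of HIST genes higher in both replicates, NASP and the members just outside 2-fold were added after their values were seen. 11 alternatives were tried. Gene names are those of the array design. The mouse reference tables were not used here. A list gene that meets the naming rule is not reported here by name.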

Additional observations from a re-analysis of the deposited data

How the results depend on the processing

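Limma's 3 calls over all features became 65 with a normexp offset of 0 (63 higher, 2 lower) and 60 with the scanner software's processed signals (58 higher, 2 lower). They became 25 with median centring, 5 with the arrays holding farnesol in Cy5 alone and 15 with those in Cy3 alone. The cause was not tested. In none of these settings was a histone mRNA pathway gene called. HIST genes at least 2-fold different in both replicates numbered 21 to 33 (median centring gave 20 higher and 1 lower), and 33 to 39 with 1 replicate left out, where the rule has only 1 replicate to meet. HIST genes lower in both replicates were 3 to 5 with 1 replicate left out. Median centring moved the share of all features at least 2-fold higher and lower from 0.657% and 0.238% to 0.542% and 0.476%. The HIST median stayed between 0.997 and 1.38 over the settings run, and each subgroup median kept its sign. No HIST gene at least 2-fold higher in both replicates changed sign. Signs changed for HIST1H2AC (-0.04) and HIST3H3 (-0.17) under median centring, for HIST3H3 (-0.02) in the arrays with farnesol in Cy5, and for HIST1H3F and HIST3H3 when 1 replicate was left out. The number of replicates, 2, limits the precision, and dim probes bring ratios closer to 0. Probes of near-identical genes may share RNA. Each ratio sets a farnesol RNA against its matched vehicle, so the reported values and limma's test are already paired by replicate.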

Other observations

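The array held 7 tested features annotated as core or linker histones that neither the HIST name rule nor the variant list covers, picked out by their annotation after the other values were seen. Of these, 5 were higher and 1 was lower in both replicates, with a median of 0.11. An unnamed transcript annotated as member M of the H3 family had 1.64 in replicate 1 and 1.50 in replicate 2, a mean of 1.57 ± 0.10, within the range of the 5 high H3 genes. A predicted locus annotated as similar to H2B, LOC391566, had 0.62 and 0.81, a mean of 0.72 ± 0.13. HILS1, a linker histone of spermatids, had -0.03 and 0.18, and H2AFB3, an H2A variant, 0.02 and 0.20.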
